A study of Mus musculus with 100 samples.

Results

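Polycomb repressive complex 2 (PRC2) is described here through 8 genes chosen by name, out of 25965 genes in the deposited RNA-seq table. They are the catalytic subunits Ezh2 and Ezh1, the core subunits Eed and Suz12, and the accessory subunits Jarid2, Mtf2, Phf19 and Aebp2. PRC2 places methyl groups on lysine 27 of histone H3. EZH2 or EZH1 carries the catalytic site, EED binds the finished mark, and SUZ12 holds the complex together. The accessory subunits define 2 forms of the complex: PRC2.1 carries a Polycomb-like protein such as MTF2 or PHF19, and PRC2.2 carries JARID2 and AEBP2. In pluripotent cells the complex is known for holding developmental genes silent, and in the placenta and early embryo it also takes part in some forms of imprinting.

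RNA was measured in 18 libraries, 3 biological replicates in each of 6 groups. The cells, all from a BL6 mother crossed to a CAST father, comprised the parental female mouse embryonic fibroblasts (MEFs), 4 induced pluripotent stem cell (iPSC) lines, of which F KSR2 and F KSR4 were female and M KSR3 and M KSR5 male, and female TX1072 embryonic stem cells (TX 2i ESCs). The 4 KSR-iPSC lines came from MEFs of E13.5 embryos whose mothers carried the i4F doxycycline-inducible Oct4, Sox2, Klf4 and c-Myc cassette, and they were made and kept in medium with knockout serum replacement (KSR). TX 2i ESCs grew in serum medium with LIF and inhibitors of MEK and GSK3 and had not been reprogrammed. Each iPSC line was 1 picked colony, male MEFs are not among the RNA-seq libraries, and nothing in the labels says that the replicates of a line are more than separate cultures, so that p-values measure the spread between such samples. A library held from 13183036 to 17921280 reads on genes. The labelled cell types held: all 10 pluripotency markers were higher and all 15 fibroblast markers lower in the pluripotent groups than in MEFs (limma, adjusted p under 0.05). Summed fibroblast marker RNA in the pluripotent libraries was between 0.128% and 0.701% of the MEF mean, the highest being M KSR5 replicate 3. Primitive endoderm markers summed to between 114% and 138% of the MEF mean in M KSR3, against 8.28% to 56.7% in the other pluripotent libraries. F KSR4 replicate 2 stood apart from its group in several subunits, but all 3 F KSR4 libraries differed widely from each other. Their median squared difference was 53.3 to 78.6 times counting noise between 2 libraries, against at most 27.7 within any other group. F KSR4 replicate 2 and M KSR5 replicate 3 are considered again beside the results they touch.

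None of the 8 genes is on a sex chromosome. In GRCm38 coordinates from the files, Ezh1 (chr11:101191115-101226463) and Suz12 (chr11:79993106-80034123) share chromosome 11, and Ezh2 (chr6:47530274-47595341) and Aebp2 (chr6:140622449-140678472) share chromosome 6. Eed is at chr7:89954656-89980983, Jarid2 at chr13:44729474-44921643, Mtf2 at chr5:108065674-108109004 and Phf19 at chr2:34893757-34914026.

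Ezh2 and Eed are known targets of E2F, the transcription factor family of S phase entry, so the promoters were searched for its site. RefSeq (GRCm38.p6) gave 12 promoter windows for the 8 genes, each from 250 bases before to 50 bases after a transcription start. The letters searched on both strands were TTTCCCGC, TTTCGCGC, TTTGCCGC and TTTGGCGC. They occurred in 3 of the 12 windows, 1 each of Ezh2, Suz12 and Phf19, and in 2.26% of all 32851 promoter windows. The octamer letters of the POU family, ATGCAAAT, occurred in 0 of the 12 windows and in 1.74% of all windows. The 3 windows with an E2F match are printed 5′ to 3′ on the strand of the gene, because they belong to 3 subunits whose levels are followed below, and the capitals mark the match. It began 3 bases after the RefSeq start used for Ezh2, 219 bases before that of Suz12, and, on the opposite strand, 208 bases before that of Phf19. The whole Ezh2 window lies inside the gene coordinates given above, which reach 47595341, so this start is not the outermost one. For Phf19 too the RefSeq start lies inside the gene coordinates. A match is a description of these letters and no evidence of binding.
Ezh2, chr6:47594981-47595280, minus strand: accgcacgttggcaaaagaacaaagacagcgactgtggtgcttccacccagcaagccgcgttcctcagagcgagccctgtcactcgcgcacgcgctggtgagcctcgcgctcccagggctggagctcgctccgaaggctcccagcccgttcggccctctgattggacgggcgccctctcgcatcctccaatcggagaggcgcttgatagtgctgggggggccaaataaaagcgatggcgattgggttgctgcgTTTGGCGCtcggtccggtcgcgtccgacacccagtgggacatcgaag
Suz12, chr11:79992856-79993155, plus strand: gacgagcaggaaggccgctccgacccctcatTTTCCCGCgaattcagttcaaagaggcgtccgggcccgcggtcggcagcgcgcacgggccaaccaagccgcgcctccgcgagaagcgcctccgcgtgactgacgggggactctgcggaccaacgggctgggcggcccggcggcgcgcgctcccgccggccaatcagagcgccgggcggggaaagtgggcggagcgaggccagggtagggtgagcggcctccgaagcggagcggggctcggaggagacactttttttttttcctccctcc
Phf19, chr2:34913927-34914226, minus strand: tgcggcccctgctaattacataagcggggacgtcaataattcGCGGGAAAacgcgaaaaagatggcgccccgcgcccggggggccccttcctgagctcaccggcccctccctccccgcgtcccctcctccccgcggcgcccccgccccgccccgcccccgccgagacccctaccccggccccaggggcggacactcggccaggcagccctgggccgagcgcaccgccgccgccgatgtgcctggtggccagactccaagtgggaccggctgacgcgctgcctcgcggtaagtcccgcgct

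The first comparison asked how PRC2 changed between fibroblasts and pluripotent cells. Of the 8 subunits, 7 were higher in the mean of the 5 pluripotent groups than in female MEFs (limma on log2 RPM, reads scaled to the library total, adjusted p under 0.05 over 14632 genes), and Aebp2 was not. This direction was common in this comparison: 42.1% of all genes tested were higher and 32.5% lower, 74.6% in all. The median difference of the 8 subunits was 2.13 on the log2 scale, against 0.21 over all genes tested. For 6 subunits the lowest of 15 pluripotent libraries lay above the highest MEF library, and 25.9% of all genes tested were separated in this way. In bulk RNA, fewer cells with a transcript and less of it per cell cannot be told apart.

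**Figure D1:**
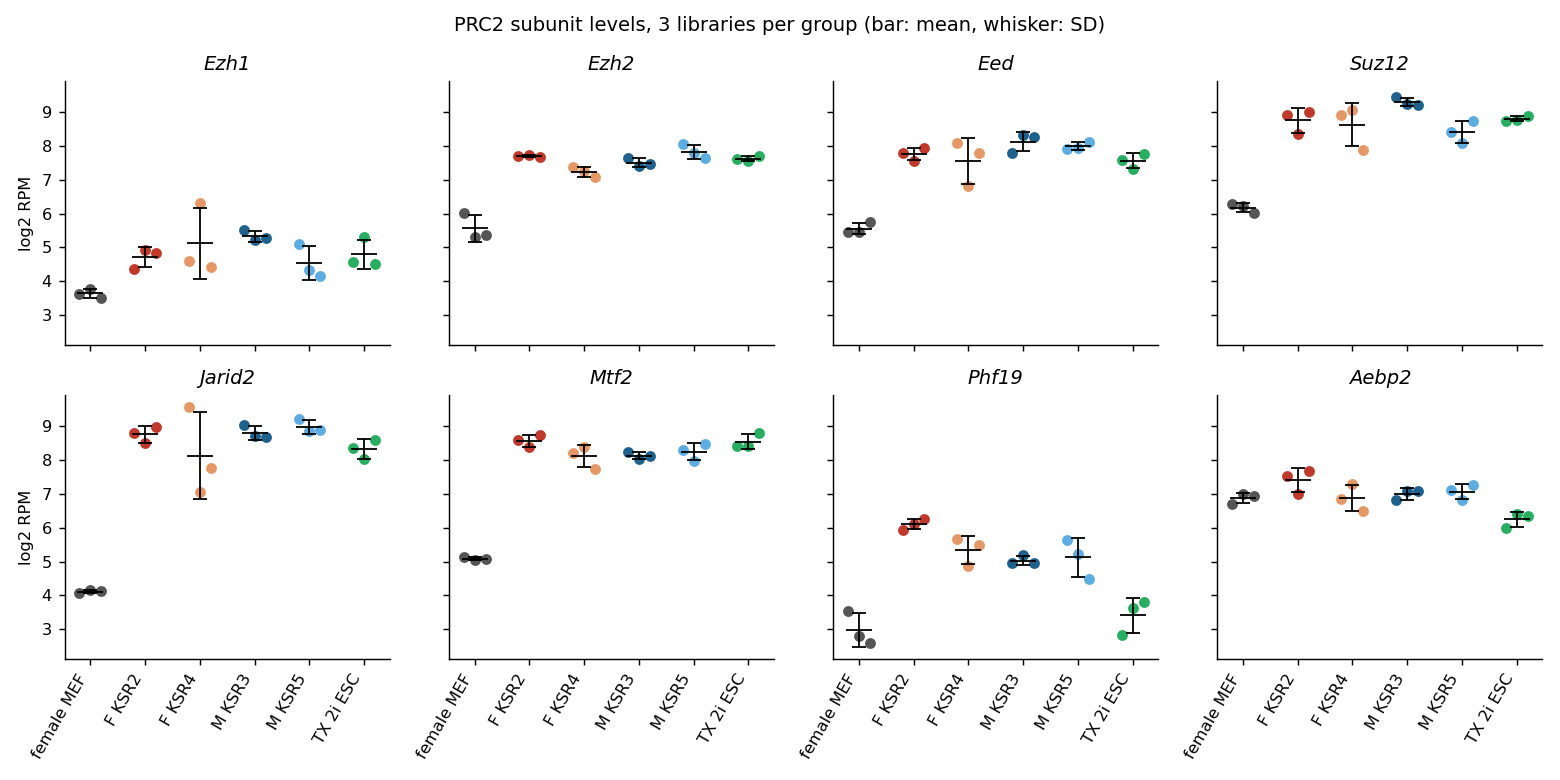
Level of each PRC2 subunit (log2 RPM, vertical axis) in the 3 libraries of each of 6 groups (points), with the group mean (bar) and SD (whisker). The MEF libraries are the lowest for Ezh1, Ezh2, Eed, Suz12, Jarid2 and Mtf2, the TX 2i ESC libraries lie near the MEFs for Phf19, and Aebp2 stays between 5.99 and 7.68 in all 18.

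Ezh2, the main methyltransferase of dividing cells, stood at 6.02, 5.31 and 5.36 log2 RPM in the MEF libraries. In the 15 pluripotent libraries it ran from 7.07 over a median of 7.64 to 8.06. Every pluripotent library was above every MEF library, and the difference of 2.02 ± 0.13 (SE) was a 4.05-fold rise (adjusted p = 3.9e-10, limma). Ezh1, the weaker methyltransferase best known from resting cells, was at 3.64, 3.78 and 3.52 log2 RPM in MEFs. It rose as well, by 1.25 ± 0.30 (SE) or 2.38-fold (adjusted p = 0.0011, limma), with a pluripotent range from 4.17 over 4.84 to 6.32. All pluripotent libraries were above all MEF libraries here too, and the highest value by far was F KSR4 replicate 2.

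The ratio of the 2 methyltransferases within a library does not depend on the scaling of that library. Like the ratios below, it is not corrected for exon length, so only its changes between groups are free of length. Ezh2 exceeded Ezh1 by 1.92 ± 0.43 log2 units (SD, n = 3) in MEFs, by 3.0 ± 0.30 in F KSR2, by 3.29 ± 0.29 in M KSR5 and by 2.83 ± 0.51 in TX 2i ESCs. In M KSR3 the excess was 2.17 ± 0.04 and in F KSR4 2.11 ± 1.03, within reach of the MEF value. The 15 pluripotent libraries together had 2.68 ± 0.67 (SD). The excess of Ezh2 was thus above the MEF mean in all 5 groups, by very different amounts, and it was given no test.

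Eed and Suz12, without which the complex is not stable, changed by similar amounts. Eed was at 5.45, 5.46 and 5.76 log2 RPM in MEFs and ran from 6.80 over 7.80 to 8.31 in the pluripotent libraries, a difference of 2.24 ± 0.19 (SE; 4.71-fold, adjusted p = 1.1e-08, limma). Suz12 was at 6.28, 6.22 and 6.02 in MEFs and ran from 7.89 over 8.89 to 9.44, a difference of 2.60 ± 0.20 (SE; 6.08-fold, adjusted p = 2.1e-09, limma). For both core subunits the groups did not overlap. Relative to Ezh2 in the same library, Eed in MEFs was at -0.01 ± 0.50 (SD, n = 3) and in pluripotent libraries at 0.21 ± 0.41 (SD, n = 15), and Suz12 at 0.61 ± 0.33 and 1.20 ± 0.51.

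Jarid2, a DNA- and nucleosome-binding subunit of PRC2.2, had the largest difference of the 8. Its MEF libraries were at 4.06, 4.16 and 4.12 log2 RPM, from 274 to 350 reads. The pluripotent libraries ran from 7.06 over 8.71 to 9.56. The gap between the groups was wide, and the difference of 4.48 ± 0.31 (SE) amounted to 22.4-fold (adjusted p = 5.6e-10, limma). The lowest pluripotent library was F KSR4 replicate 2, while replicate 1 of the same line was the highest.

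Mtf2, which brings PRC2.1 to unmethylated CpG islands, was at 5.14, 5.04 and 5.09 log2 RPM in MEFs and between 7.74 and 8.81 in the pluripotent libraries, with a median of 8.38. It rose by 3.23 ± 0.14 (SE; 9.39-fold, adjusted p = 1.1e-12, limma), with little spread among the 5 groups. Jarid2 minus Mtf2 within a library, not corrected for exon length, was -0.98 ± 0.09 log2 units in MEFs (SD, n = 3). In the 15 pluripotent libraries it was 0.28 ± 0.65, with -0.22 ± 0.15 in TX 2i ESCs and 0.02 ± 1.35 in F KSR4 (SD, n = 3). The difference thus shifted towards Jarid2, but its sign depends on length. Per kilobase of exon, Mtf2 stayed above Jarid2 in F KSR2 (6.55 against 6.13), F KSR4 (6.09 against 5.51) and TX 2i ESCs (6.52 against 5.70). It was slightly below Jarid2 in M KSR3 (6.11 against 6.18) and M KSR5 (6.23 against 6.36).

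The remaining accessory subunits differed from each other. Aebp2, a zinc finger partner of JARID2 in PRC2.2, was at 6.71, 7.01 and 6.93 log2 RPM in MEFs and ran from 5.99 over 7.0 to 7.68 in the pluripotent libraries. The groups overlapped fully, and the difference was 0.04 ± 0.16 (SE; 95% interval -0.31 to 0.38, adjusted p = 0.85, limma). Jarid2 and Aebp2, which share a form of the complex, thus changed unlike each other, and the order of their means was reversed. Jarid2 was 2.77 ± 0.11 log2 units below Aebp2 in MEFs (SD, n = 3; difference -2.77) and 1.68 ± 0.69 above it in pluripotent libraries (SD, n = 15). Phf19, the second Polycomb-like protein measured, was at 3.54, 2.79 and 2.60 in MEFs and ran from 2.83 over 5.18 to 6.25 in pluripotent cells. Its mean difference of 2.03 ± 0.25 (SE; 4.08-fold, adjusted p = 1.0e-06, limma) joined groups that behaved unlike each other, and 14 of 15 pluripotent libraries were above all MEF libraries. Without F KSR4 replicate 2 and M KSR5 replicate 3 together, 7 subunits passed the threshold in the mean of the pluripotent groups, with Ezh1 at 1.17, Phf19 at 2.14 and Jarid2 at 4.60.

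Taken group by group against MEFs in the same fit, F KSR2 had 8 of 8 subunits higher, F KSR4, M KSR3 and M KSR5 had 7 of 8, and TX 2i ESCs had 6 higher and 1 lower. Of all genes tested, 38.0% were higher than in MEFs for F KSR2, 34.6% for F KSR4, 39.4% for M KSR3, 39.0% for M KSR5 and 37.5% for TX 2i ESCs, where 29.0% were lower. All of them share the same MEF libraries. The exceptions were Aebp2 and Phf19. Aebp2 was higher than in MEFs in F KSR2 (0.52 ± 0.21 SE, adjusted p = 0.039, limma), lower in TX 2i ESCs (-0.63, adjusted p = 0.014, limma) and not past the threshold in the other 3 lines. Phf19 passed it in all 4 KSR-iPSC lines but not in TX 2i ESCs (0.44, adjusted p = 0.23, limma).

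The weakest calls against MEFs depended on single libraries, and some also on the processing. That of Aebp2 in F KSR2 was lost without F KSR2 replicate 1 or 3, or without any 1 of the MEF libraries, with values from 0.38 to 0.58 and adjusted p from 0.050 to 0.16. It was also lost with all libraries when low values were not filtered (adjusted p = 0.067, limma). That of Aebp2 in TX 2i ESCs was lost without TX 2i ESC replicate 1 (-0.50) or MEF replicate 2 (-0.57). That of Ezh1 in M KSR5, 0.89 with an adjusted p of 0.049 (limma), was lost in 17 of 26 alternatives, among them the loss of M KSR5 replicate 1 (0.61, adjusted p = 0.21, limma) and limma-voom (adjusted p = 0.074). Ezh1 lost its call in F KSR2 (1.07) without F KSR2 replicate 2 or 3 or MEF replicate 3 (0.96 to 1.0), and in TX 2i ESCs (1.15) without TX 2i ESC replicate 2 (0.90).

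**Figure D2:**
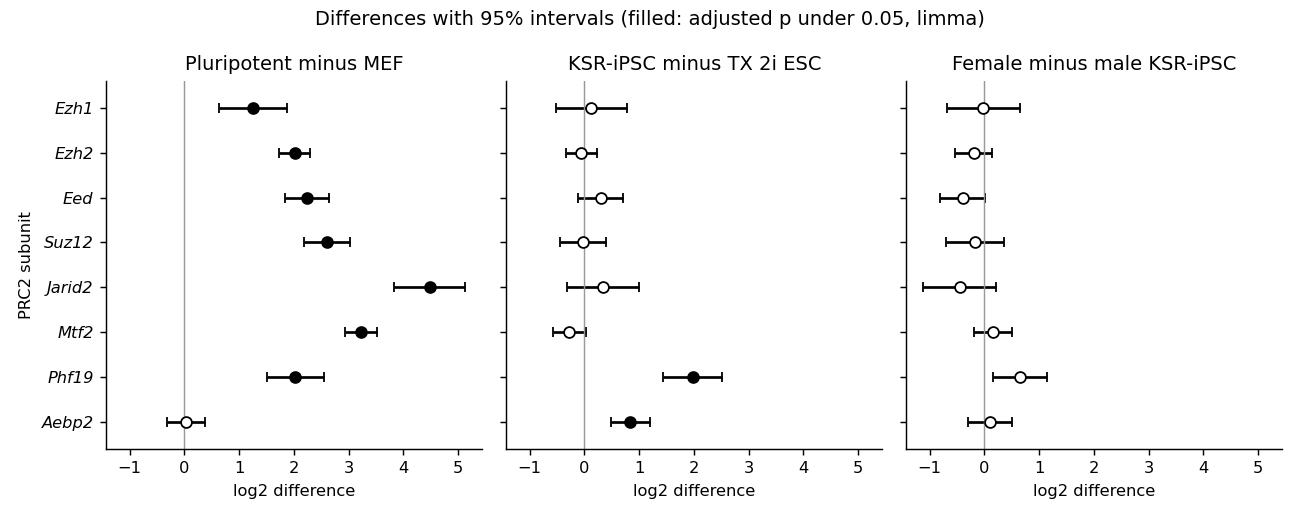
Difference of each PRC2 subunit (log2, horizontal axis) in 3 comparisons, with 95% intervals and filled points past an adjusted p of 0.05. The intervals of 7 subunits, all but Aebp2, lie to the right of 0 in pluripotent cells against MEFs, those of Phf19 and Aebp2 alone do so in KSR-iPSCs against TX 2i ESCs, and no point is filled between the sexes.

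The second comparison set the 4 KSR-iPSC lines against TX 2i ESCs. The lines differ from these ESCs in culture medium, origin and genetic construct together, and 2 lines are male while the ESCs are female. The part of each cannot be told apart. Only 2 of the 8 subunits passed the threshold, Phf19 and Aebp2, and both were higher in KSR-iPSCs. Both also passed with the 2 female lines alone. Of all genes tested, 23.0% passed it, 11.0% being higher. TX 2i ESC libraries held Phf19 at 2.83, 3.63 and 3.80 log2 RPM. F KSR2 had 5.94, 6.12 and 6.25, F KSR4 5.68, 4.88 and 5.49, M KSR3 4.94, 5.18 and 4.95, and M KSR5 5.64, 5.23 and 4.49. No KSR-iPSC library was as low as any TX 2i ESC library, and the difference was 1.98 ± 0.25 (SE; 3.94-fold, adjusted p = 3.9e-05, limma).

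Aebp2 was at 5.99, 6.41 and 6.34 log2 RPM in TX 2i ESCs. It was at 7.52, 7.0 and 7.68 in F KSR2, at 6.85, 7.28 and 6.49 in F KSR4, at 6.81, 7.09 and 7.09 in M KSR3 and at 7.12, 6.82 and 7.26 in M KSR5. The groups again did not overlap, though F KSR4 replicate 3 came close, and the difference was 0.84 ± 0.17 (SE; 1.79-fold, adjusted p = 0.0017, limma). Of the genes tested in this comparison, 3.94% were separated in this way with the KSR-iPSCs higher. The other 6 subunits gave intervals that bound their difference: from -0.34 to 0.24 for Ezh2, -0.45 to 0.40 for Suz12, -0.11 to 0.71 for Eed and -0.58 to 0.02 for Mtf2 (95%, log2). Those of Jarid2, -0.32 to 1.01, and Ezh1, -0.51 to 0.77, left room for larger differences. Eed passed the threshold without F KSR4 replicate 2 (0.39, adjusted p = 0.034, limma) and without that library and M KSR5 replicate 3 together (0.38, adjusted p = 0.046, limma).

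The ratio of the 2 Polycomb-like genes within a library followed Phf19. Mtf2 exceeded Phf19 by 5.12 ± 0.42 log2 units (SD, n = 3) in TX 2i ESCs, by 2.86 ± 0.52 (SD, n = 12) in KSR-iPSCs and by 2.11 ± 0.47 (SD, n = 3) in MEFs. The highest KSR-iPSC library, at 3.97, was below the lowest TX 2i ESC library, at 4.77. Mtf2 itself was at 8.54 ± 0.23 log2 RPM in TX 2i ESCs (SD, n = 3) and at 8.11 ± 0.34 to 8.57 ± 0.18 in the KSR-iPSC lines.

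Among the pluripotent groups, each pair was compared, 10 pairs and 80 tests of a subunit in all, and 8 passed the threshold. Phf19 was lower in TX 2i ESCs than in each KSR-iPSC line, by -2.68 against F KSR2 (adjusted p = 5.6e-05), -1.93 against F KSR4 (0.00086), -1.60 against M KSR3 (0.0018) and -1.70 against M KSR5 (0.0013; all limma). Aebp2 was lower in TX 2i ESCs than in F KSR2, M KSR3 and M KSR5, and the difference from F KSR4 was -0.63 (95% interval -1.07 to -0.18, adjusted p = 0.054, limma). The share of all genes past the threshold against TX 2i ESCs was 12.8% for F KSR2, 15.4% for F KSR4, 23.1% for M KSR3 and 18.2% for M KSR5. Between KSR-iPSC lines 1 subunit test passed, Phf19 being 1.08 log2 units lower in M KSR3 than in F KSR2 (-1.08 ± 0.32 SE, adjusted p = 0.039, limma; background 10.7%). That call was lost without any 1 library of either line, with values from -1.16 to -1.0 and adjusted p up to 0.13, and without M KSR5 replicate 2 (adjusted p = 0.050, limma). It was also lost with all libraries when low values were not filtered (adjusted p = 0.067, limma). Between the other lines the share of all genes past it was 1.14% for F KSR4 against F KSR2, 2.82% for M KSR5 against F KSR2, 13.1% for M KSR3 and 2.34% for M KSR5 against F KSR4, and 4.48% for M KSR5 against M KSR3. For Aebp2 the difference of TX 2i ESCs from M KSR3, -0.75, lost its call without TX 2i ESC replicate 1 (-0.62, adjusted p = 0.081, limma) or M KSR3 replicate 2 or 3 (both -0.70), and that from M KSR5, -0.82, without TX 2i ESC replicate 1 (-0.69) or M KSR5 replicate 3 (-0.73).

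Ordered by level, the pluripotent groups formed an unbroken series for 7 of the 8 subunits, in which no neighbouring groups differed past the threshold (smallest adjusted p = 0.054, limma, between F KSR4 and TX 2i ESC for Aebp2). From the highest, the order for Ezh1 was M KSR3, F KSR4, TX 2i ESC, F KSR2 and M KSR5, and for Ezh2 it was M KSR5, F KSR2, TX 2i ESC, M KSR3 and F KSR4. Suz12 was highest in M KSR3, at 9.29 ± 0.13 log2 RPM (SD, n = 3), and lowest in M KSR5, at 8.41 ± 0.32. The 2 male lines did not overlap for Suz12, but the difference of -0.88 ± 0.25 (SE) had an adjusted p of 0.059 (limma). It passed the threshold with limma-voom (adjusted p = 0.045) and in 6 other alternatives, such as without M KSR5 replicate 3 (-1.05, adjusted p = 0.045, limma). Eed and Jarid2 were highest in the male lines and lowest in F KSR4, whose Jarid2 libraries were at 9.56, 7.06 and 7.77. Without replicate 1 of that line, the highest, Jarid2 was lower in F KSR4 than in each other pluripotent group, by 0.91 log2 units against TX 2i ESC (adjusted p = 0.0092, limma) up to 1.57 against M KSR5 (adjusted p = 0.0011, limma). Each of these pairs passed the threshold in only that 1 of 26 alternatives. Over the alternatives F KSR4 minus F KSR2 ran from -1.34 to -0.09, and TX 2i ESC minus F KSR4 from -0.34 to 0.91. In contrast, the series of Phf19 had a break between M KSR3 and TX 2i ESC (adjusted p = 0.0018, limma), and only after it came the MEFs.

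The genes whose levels ran most nearly in parallel with a subunit were found over the 15 pluripotent libraries, which fall into 5 groups of 3 and share depth and scaling, so that Pearson's r is a description only. They were Ddx23 for Ezh2 (0.92), Trim3 for Ezh1 (0.88), Ddx20 for Eed (0.96) and Fam126b for Suz12 (0.92). For 3 accessory subunits they were Dusp16 for Mtf2 (0.93), Gca for Phf19 (0.89) and Itga5 for Aebp2 (0.88). None of these 7 is itself a PRC2 subunit.

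The third comparison set female against male lines. Between 6 female and 6 male KSR-iPSC libraries 0 of 8 subunits passed the threshold (limma, adjusted p under 0.05 over 13609 genes), where 2.87% of all genes did. At an unadjusted p of 0.05, 1 subunit passed, and limma-voom on the recovered reads called 0. That subunit was Phf19, which ran from 4.88 over 5.81 to 6.25 log2 RPM in female and from 4.49 over 5.07 to 5.64 in male libraries. The ranges overlapped, and the difference was 0.65 ± 0.24 (SE; 95% interval 0.15 to 1.15, adjusted p = 0.15, limma). Without F KSR4 replicate 2 it was 0.82 and passed the threshold (adjusted p = 0.037, limma). The lines of 1 sex came from the MEFs of that sex, so that sex, embryo and line cannot be told apart beyond the 2 colonies each.

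For the other 7 subunits the interval of the female minus male difference included 0. It ran from -0.54 to 0.14 for Ezh2, -0.80 to 0.01 for Eed, -0.70 to 0.37 for Suz12, -0.20 to 0.51 for Mtf2 and -0.30 to 0.50 for Aebp2 (95%, log2). The intervals of Jarid2, -1.11 to 0.21, and Ezh1, -0.69 to 0.65, were wider.

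Levels of different genes can be compared only per length, and the reads were therefore divided by the exon length of GENCODE vM21. Eed, Ezh2 and Suz12 were the most abundant subunits in MEFs, at 4.51 ± 0.17, 4.08 ± 0.40 and 4.04 ± 0.14 log2 RPM per kilobase (SD, n = 3), and Aebp2 followed at 3.85 ± 0.15. Mtf2 was at 3.07 ± 0.05, Jarid2 at 1.49 ± 0.05, Phf19 at 1.07 ± 0.50 and Ezh1 at 1.04 ± 0.13. In MEFs, then, Aebp2 was the most abundant accessory subunit and Jarid2 one of the rarest.

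In F KSR2 the same scale gave Eed 6.71 ± 0.19, Suz12 6.63 ± 0.37, Mtf2 6.55 ± 0.18, Ezh2 6.22 ± 0.03 and Jarid2 6.13 ± 0.24 log2 RPM per kilobase (SD, n = 3). These 5 genes formed the upper group in every pluripotent group. Aebp2 ranked sixth of 8 in each of them, from 3.22 ± 0.23 in TX 2i ESCs to 4.37 ± 0.36 in F KSR2. Ezh1 was last in the 4 KSR-iPSC lines, between 1.93 and 2.72, whereas Phf19 was last in TX 2i ESCs at 1.52 ± 0.52. The exon length counts all annotated exons of a gene, so a gene read mainly from short transcripts is understated.

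**Figure D3:**
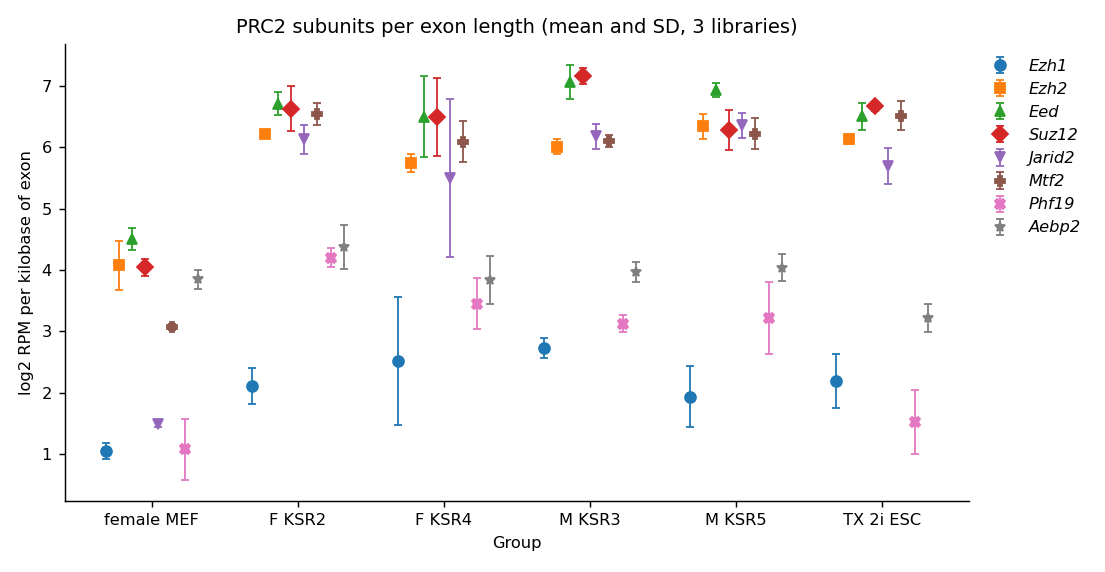
Mean level of the 8 PRC2 subunits per exon length (log2 RPM per kilobase, vertical axis) in 6 groups, with SD over 3 libraries. Jarid2 and Mtf2 join Ezh2, Eed and Suz12 in the pluripotent groups, while Aebp2 runs from 3.22 to 4.37 in them against 3.85 in MEFs and Phf19 is low in MEFs and TX 2i ESCs.

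All cells were hybrids of a BL6 mother and a CAST father, and the deposited table splits reads by allele. Of the reads that could be given to an allele, the percentage from BL6 is called the maternal share. It was set beside the share of the other genes within 10 Mb and against MEFs, and as only 1 direction of the cross was made, the parent and the strain of an allele cannot be told apart. With 3 against 3 libraries, the exact two-sided permutation test cannot give a p below 0.1, and after adjustment over 40 tests the smallest value was 0.21. The libraries did not overlap those of MEFs in 19 of the 40 pairs of subunit and group, and in 30 without MEF replicate 1. Over all genes with enough allelic reads such separation was found for 31.7% with F KSR2, 25.9% with F KSR4, 37.6% with M KSR3, 29.6% with M KSR5 and 34.3% with TX 2i ESCs.

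**Figure D4:**
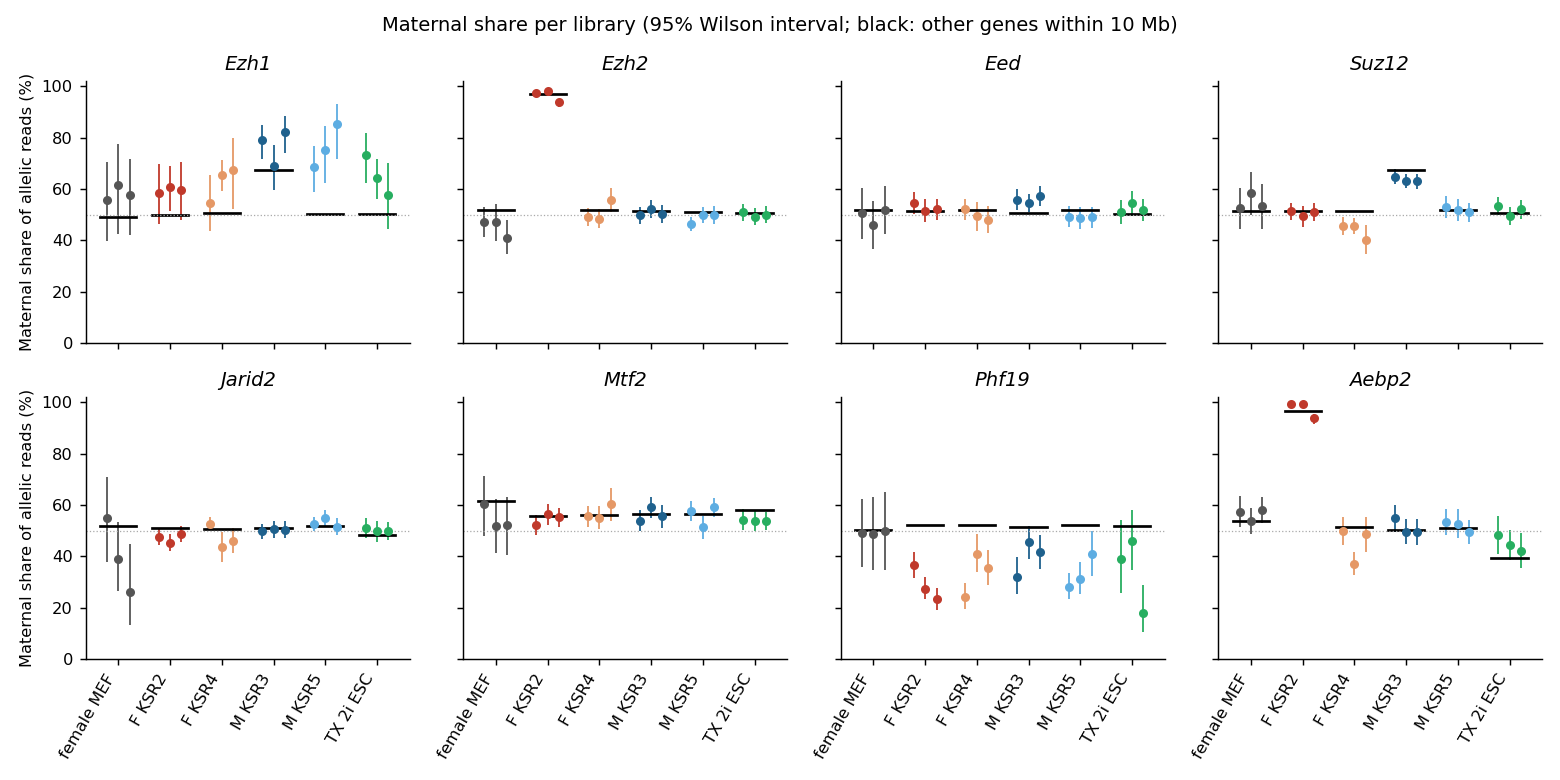
Maternal share of allelic reads (%, vertical axis) for each PRC2 subunit in each library, with 95% Wilson intervals that cover counting error only, and the mean share of other genes within 10 Mb (black line). Ezh2 and Aebp2 are above 93% in F KSR2, Suz12 and Ezh1 are raised in M KSR3, and Phf19 is below its neighbourhood in the pluripotent groups.

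Ezh2 and Aebp2, both on chromosome 6, were read almost only from the maternal allele in F KSR2. Their maternal shares were 97.5%, 98.2% and 93.8% for Ezh2, from 880 to 989 allelic reads, and 99.3%, 99.3% and 93.9% for Aebp2, from 412 to 576. In MEFs Ezh2 had 45.0% ± 3.5 and Aebp2 56.4% ± 2.4 (SD, n = 3). The other genes of chromosome 6 had the same skew in this line, with a mean maternal share of 96.8%. The paper reports maternal uniparental disomy of this chromosome in F KSR2. Replicate 3 was the lowest of the line for both genes and for their neighbourhoods, which were at 93.6% around Ezh2 and 92.7% around Aebp2. The total level was not low in this line: Ezh2 was at 7.71 ± 0.03 and Aebp2, at 7.40 ± 0.36 log2 RPM (SD, n = 3), had the highest of the 6 group means. In TX 2i ESCs Aebp2 had 45.0% ± 3.1 maternal reads (SD, n = 3), and its libraries did not overlap those of MEFs. The genes within 10 Mb were at 39.4% there, from 38.7% to 40.5%, against 49.3% for the other genes of the chromosome. In MEFs that neighbourhood was at 53.6%. Whether this skew has a part in the lower total Aebp2 of TX 2i ESCs was not tested.

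Suz12 and Ezh1, both on chromosome 11, had a maternal excess in M KSR3. Suz12 was at 64.7%, 63.1% and 63.0% there and at 52.4%, 58.4% and 53.3% in MEFs. Ezh1 was at 78.9%, 68.9% and 82.2%, from 106 to 142 allelic reads, and at 55.6%, 61.5% and 57.5% in MEFs, from 26 to 40. The genes within 10 Mb were at 67.5% around Suz12 and 67.3% around Ezh1, so that part of the chromosome shared the excess. M KSR3 also had the highest mean of total Suz12 and of total Ezh1. In M KSR5 Ezh1 had 68.3%, 75% and 85.4% maternal reads beside a neighbourhood at 50.2%, from 41 to 101 reads a library. The mean share of Ezh1 was above its neighbourhood in every group. It was 58.2% against 49.2% in MEFs, 59.6% against 49.8% in F KSR2 and 62.6% against 50.7% in F KSR4. In M KSR3 it was 76.7% against 67.3%, and in TX 2i ESCs 65.0% against 50.1%.

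Phf19 had a mean maternal share below that of its surroundings in every pluripotent group. In MEFs its maternal share was 49.0%, 48.8% and 50.0%, from 38 to 51 reads. Group means were 29.1% ± 6.8 for F KSR2, 33.6% ± 8.6 for F KSR4, 39.7% ± 6.9 for M KSR3, 33.4% ± 6.6 for M KSR5 and 34.4% ± 14.7 for the TX 2i ESC group (SD, n = 3; exact permutation p = 0.1 each, the smallest possible, adjusted p = 0.21). All 15 pluripotent libraries, from 17.9% to 46.2%, lay below the 3 MEF libraries, and the genes within 10 Mb were at 51.3% to 52.1% in the group means. The TX 2i ESC values rest on 41, 65 and 67 reads.

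For Jarid2, Mtf2 and Eed both alleles were read in similar amounts. Group means ran from 47.2% to 53.1% for Jarid2 in pluripotent cells, and the MEF libraries, with only 27 to 46 allelic reads, spread from 25.9% to 54.8%. Mtf2 was between 54.0% and 57% in every group, beside a neighbourhood at 55.6% to 61.4%. Eed was between 48.9% and 55.9%. Its highest share, in M KSR3, did not overlap the MEFs.

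The wider Polycomb system was read from lists of 38 further genes, chosen with earlier results of these data known. Of 7 other PRC2 partners, 5 were higher and 1 lower in pluripotent cells than in MEFs, with a median difference of 0.97. Of all genes tested, 42.1% were higher and 32.5% lower in this comparison, with a median of 0.21. Epop (listed as E130012A19Rik), which links PRC2.1 to elongin, rose from 2.54 ± 0.18 log2 RPM in MEFs (SD, n = 3) to 8.92 ± 0.70 (SD, n = 15), a difference of 6.38 ± 0.34 (SE, adjusted p = 2.4e-11, limma). Ezhip (listed as AU022751), an inhibitor of EZH2 known from germ cells, had 0 reads in every MEF library and 74 to 231 in the pluripotent libraries. With 3 reads taken as the floor of each MEF library, TX 2i ESCs were at least 36.7-fold higher and M KSR3 at least 66.9-fold. Phf1, the third Polycomb-like protein, fell instead, by 1.61 log2 units (-1.61 ± 0.23 SE, adjusted p = 7.3e-06, limma). The 3 Polycomb-like genes therefore did not share a direction.

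PRC1, the complex that ubiquitinates histone H2A and in part reads the PRC2 mark, had members past the threshold in both directions: of 24 genes, 11 were higher, 9 lower and 4 not past the threshold, with a median of 0.53. These counts are near the background of 42.1% of all genes higher and 32.5% lower. Among the chromobox readers, Cbx7 rose by 6.76 ± 0.18 log2 units (SE, adjusted p = 2.5e-15, limma), from 22 to 43 reads in the MEF libraries to between 1624 and 4752 in the pluripotent libraries. Phc1, a polyhomeotic subunit, rose by 3.82 ± 0.13 (SE, adjusted p = 6.0e-14, limma). In the same complex Phc2 and Cbx8 were lower, by -2.27 and -2.78.

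Of 3 H3K27 demethylases, Kdm6a rose by 1.55 ± 0.16 (SE, adjusted p = 1.0e-07, limma) and Kdm6b did not pass the threshold (0.29, adjusted p = 0.15, limma). The third, Uty, is on the Y chromosome and was read only in the male lines. It is counted as higher, but all MEF libraries were female, so its call carries the sex of the lines. Of 4 genes of the H2A deubiquitinase complex, 3 were higher, among them Asxl1 by 1.19 and Asxl2 by 0.98, and Asxl3 was lower. As a measured fact beside the rise of PRC2, all 14 replication and mitosis genes of the list were also higher in pluripotent cells, with a median of 1.98. Both counts stand beside 42.1% of all genes tested higher and 32.5% lower, with a median of 0.21. Their summed level was between 240% and 444% of the MEF mean, and the 8 subunits summed to between 330% and 615%. The part of division rate in the rise of PRC2 was not tested.

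**Figure D5:**
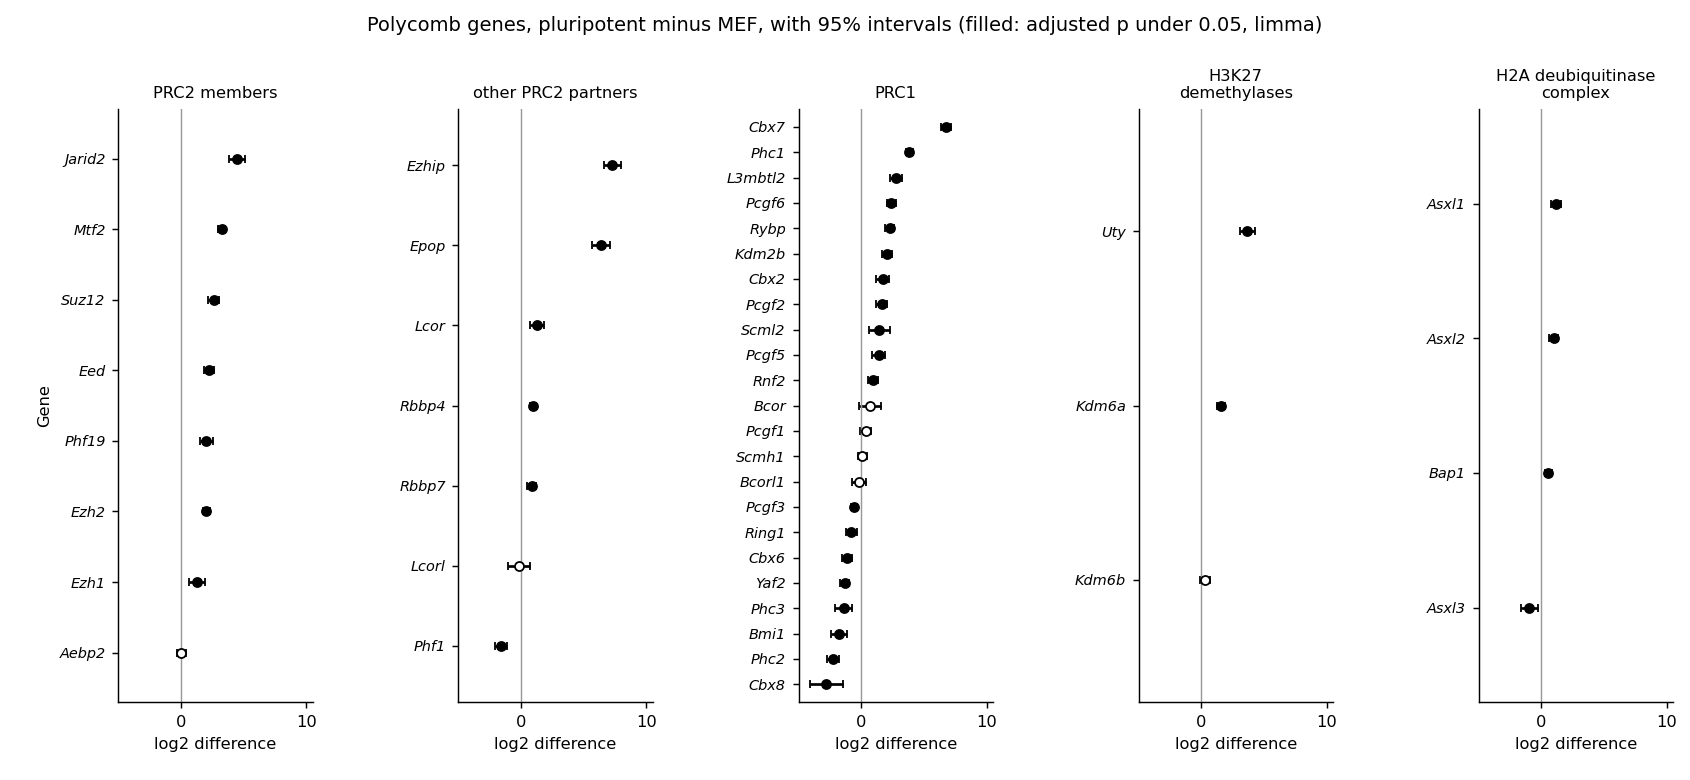
Difference between pluripotent cells and MEFs (log2, horizontal axis) for the PRC2 subunits and other Polycomb genes, with 95% intervals and filled points past an adjusted p of 0.05. The intervals of all PRC2 subunits but Aebp2 lie to the right of 0, and the PRC1 genes shown run from Cbx8 at -2.78 to Cbx7 at 6.76.

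Between KSR-iPSCs and TX 2i ESCs the other Polycomb genes changed less. The differences of the 7 other PRC2 partners lay between -0.77 and 0.46, with a median of -0.09, and the smallest adjusted p was 0.057 (limma), for the histone-binding Rbbp7, at -0.44. Of 24 PRC1 genes, 3 were higher and 3 lower in KSR-iPSCs. These counts are near the background of this comparison, where 23.0% of all genes tested passed the threshold, 11.0% being higher. Phc1 was higher by 1.05 ± 0.13 (SE, adjusted p = 3.8e-05, limma). Bcorl1 was lower by 0.96 log2 units (-0.96 ± 0.29 SE, adjusted p = 0.022, limma). Between the sexes, the X-linked Rbbp7 and Kdm6a were higher in female lines, by 0.90 ± 0.17 (SE, adjusted p = 0.011, limma) and 0.91 ± 0.19 (SE, adjusted p = 0.015, limma).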

How the data were processed

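RNA-seq was used from 18 libraries, 3 replicates in each of 6 groups taken from the labels. The series holds 100 samples, and 82 amplicon methylation samples were not used here. Per the labels and the methods, the authors trimmed reads with Trim Galore, aligned them with HISAT2 2.1.0 to GRCm38 with the strain variants masked, split them by allele and counted reads over genes in SeqMonk. The annotation release is not given in the sources used here. The deposited values are log2 RPM, reads scaled to the library total, 4 columns a library, of which the total, the maternal (BL6) and the paternal (CAST) columns were used. All 72 columns were mapped to a library by their names. Undoing the logarithm gave whole reads for 99.98% to 100.0% of values per library, within 0.05 of a read, and a count of 0 had been held at 0.9 of a read. Reads on genes ran from 13183036 to 17921280 per library, and 17.7% to 19.9% of them carried an allele.

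From these values, limma 3.58.1 in R 4.3.3 (trended prior, two-sided, Benjamini-Hochberg adjustment over all genes tested, threshold 0.05) was fitted to genes above 0 log2 RPM in at least 3 libraries. One fit of all 6 groups gave every comparison except that between the sexes, which used the 12 KSR-iPSC libraries. Folds are on the log2 scale of the deposited values. The maternal share used genes with at least 5 allelic reads in each library, exact two-sided permutation tests and Wilson intervals, which cover counting error only, as PCR copies are not independent molecules. Python 3.11.15 with numpy 2.4.6, pandas 2.3.3, scipy 1.17.1 and matplotlib 3.10.9 was used. The fits were tested on simulated data.

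All 8 subunits were named in every comparison. From the other lists, the genes with the largest difference among those past the threshold without overlap were named, up to 3 per list, and Phc2, Cbx8, Kdm6b, Uty, Rbbp7, Asxl3 and, between the sexes, Kdm6a were added after their values were seen. Of the genes this rule selects, 1 PRC1 gene, counted in its list but drawn in no figure, and the gene nearest to Jarid2 are not reported here. The likeness of genes over all 18 libraries was not reported, as MEF and pluripotent libraries form separate clusters. The members and lists were chosen with earlier results of these data known. Alternatives were log2(RPM + 1), other filters and scalings, limma-voom on the recovered reads, replicate number as a block, line as the unit or a random effect, other sets of libraries in the fit, at least 20 allelic reads, and leaving out each library.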

Additional observations from a re-analysis of the deposited data

Results flagged for a closer look

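Ezh1 in F KSR4 replicate 2 stood at 6.32 log2 RPM, the highest of the 6 female KSR-iPSC libraries, with a gap to the next library that made up more of the range than Dixon's 95% critical value for 6 samples allows. The test was run on 16 groups, the 8 subunits in the 6 female and in the 6 male KSR-iPSC libraries, and chance passes about 1 in 20 groups.

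Differences between groups under the same test were found for Phf19 and Aebp2. Phf19 differed between TX 2i ESCs and F KSR2 by -2.68, F KSR4 by -1.93, M KSR3 by -1.60 and M KSR5 by -1.70 log2 units, and between M KSR3 and F KSR2 by -1.08. Aebp2 differed between TX 2i ESCs and F KSR2 by -1.15, M KSR3 by -0.75 and M KSR5 by -0.82. For the pairs with TX 2i ESCs, medium, origin, construct and, for the male lines, sex cannot be told apart. For M KSR3 and F KSR2, sex, embryo and line cannot be told apart.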

How the results depend on the processing

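Against MEFs, 7 subunits passed the threshold in every alternative and with each library left out, and 2 passed between KSR-iPSCs and TX 2i ESCs, except without F KSR4 replicate 2, where Eed made 3. Between female and male KSR-iPSCs the count of 0 became 1, Phf19, without F KSR4 replicate 2, and 1 without that library and M KSR5 replicate 3 together, an alternative chosen after seeing the data; leaving out each library gave 0 to 1. The 120 tests of a subunit between 2 groups gave 44 calls, 41 to 46 in the other alternatives and 40 to 53 with 1 library left out. Calls gained included Aebp2 between TX 2i ESC and F KSR4 with libraries centred on their median gene (-0.80), and Suz12 between M KSR3 and F KSR4 (0.90) and Mtf2 between TX 2i ESC and F KSR4 (0.57) without F KSR4 replicate 2. The maternal share was apart from MEFs in 19 pairs, in 18 from the deposited per-allele values, and in 19 to 30 with 1 library left out, the 30 without MEF replicate 1. The change of Eed relative to Ezh2, 0.22 log2 units, was -0.059 without MEF replicate 1 and at most 0.42; the cause was not tested. Of the 38 other Polycomb genes 32 passed against MEFs, the Y-linked Uty among them, and 30 to 33 in the alternatives, beside 74.6% of all genes tested.

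Centring on the median gene moved the median of all genes from 0.21 to 0.33 against MEFs and from -0.11 to -0.01 between the sexes, where calls went from 216 higher and 174 lower to 292 and 114. With replicate number as a block, 7, 2 and 0 subunits passed in the 3 comparisons, and 45 of the tests between groups. Deviations from the group means correlated from -0.31 to 0.59 between libraries with the same number (median 0.10). Between libraries with different numbers they correlated from -0.52 to 0.42 (median -0.05). Pairs of libraries numbered 3 were all positive, from 0.06 to 0.45. Whether the numbers mark a shared batch was not tested. edgeR was not run, and limma-voom on the recovered reads was the only count-based alternative. The MEF reads of Phf19 and Ezh1 were few on either allele, which limits their maternal shares.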
